A study of Rattus norvegicus with 6 samples.

Results

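The genes described here are the rat genes whose symbol is Zfp followed by a number only, which mostly encode zinc finger proteins. They were chosen by symbol from the authors' table and not by any measured value, and Zfp36, an RNA-binding protein of another family, was left out. The rule took 156 of the 17172 genes and loci listed, and 145 of them were among the 13547 genes that passed the filter on low counts. Poly(A) RNA was sequenced from c-kit+ bone marrow cells of 6 ACI rats aged 6 to 8 weeks, 1 library per rat. In 3 rats phenylhydrazine (PHZ), a compound that lyses red cells and causes anaemia, was given intraperitoneally at 100 mg/kg, and 3 control rats were given phosphate-buffered saline (PBS). Marrow of the hind legs was taken 36 h later, and cells were enriched with a biotinylated antibody to c-kit, the stem cell factor receptor, and streptavidin particles without a column. By the labels each group held 2 females and 1 male, but Y-linked transcripts, described below, went against the label in 3 of the 6 rats.

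Zinc finger proteins of the C2H2 kind carry strings of small zinc-binding loops, each of which can contact a few bases of DNA. Many of the numbered Zfp genes encode such proteins with a KRAB domain, which binds the corepressor KAP1 (gene Trim28). KAP1 in turn brings the histone methyltransferase SETDB1, which lays the repressive mark H3K9 methylation, and in many tissues these proteins silence transposable elements and nearby genes. Others lack KRAB and act as promoter factors, as partners of other corepressors, or outside transcription altogether, in spindle assembly, ribosome maturation and the sensing of stalled ribosomes. In blood formation, single members are known from progenitor cells, B cells and red cell precursors.

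The libraries held 13196249 to 19492793 expected counts, and the numbered Zfp genes took 0.251% (PHZ replicate 2) to 0.344% (PBS replicate 2) of them. Kit itself was measured at 51.7 to 63.9 CPM (counts scaled to library size, here with TMM factors) in PBS and 33.9 to 71.6 in PHZ, while Cd34, another progenitor marker, had 9 to 12 counts per PBS library and 1 to 5 per PHZ library. Globin RNA was abundant in every library, with Hba1 at 53100 to 170000 CPM. Transcripts of 2 Y-linked genes went against the labelled sex in 3 libraries: PBS replicates 1 and 2 and PHZ replicate 3. They were at 61.1 CPM in PBS replicate 1, 49.0 in PHZ replicate 2 and 55.6 in PHZ replicate 3, and near 0 elsewhere. By these transcripts sex was not balanced between the groups and partly coincided with treatment. PBS replicate 1 also stood apart in stromal and endothelial markers, whose summed level was 713.8 CPM there and 34.41 to 93.28 CPM in the other libraries. Values without the libraries that go against their label are given below for the called members and for each gene list.

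Most numbered Zfp genes were present at low to moderate levels. Their median level was 3.71 FPKM (fragments per kilobase of transcript, scaled to library size and averaged over the 6 libraries), against 6.52 for all genes with an Entrez ID and 4.52 when the authors' additional loci are counted too. By this measure 39 members lay under 1 FPKM, 87 lay from 1 to 10, and 30 reached 10 or more. All 6 libraries listed 148 of the 156 members. The median transcript length was 3086 bases, against 2302 over all genes.

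Zfp207 stood first among the members. It encodes BuGZ, a spindle protein that binds the checkpoint protein Bub3, and was measured at 76.26, 77.88 and 69.14 FPKM in PBS and 97.61, 80.42 and 96.28 FPKM in PHZ. Every PHZ library was above every PBS library. After it came Zfp414, with a mean of 38.7 FPKM, Zfp384, which encodes a factor known as a fusion partner in acute leukaemia, with 37.9, and Zfp706 with 31.7. Zfp598, the ubiquitin ligase that senses collided ribosomes, averaged 27.2 FPKM. The next were Zfp91, which encodes another ubiquitin ligase, at 22.7, Zfp217, a partner of corepressor complexes, at 21.1, and Zfp513 at 20.5. Below Zfp207 the order was not firm, since the library values of neighbours in it overlapped: Zfp414 ranged from 31.35 to 51.48 FPKM and Zfp384 from 31.19 to 47.37.

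**Figure D1:**
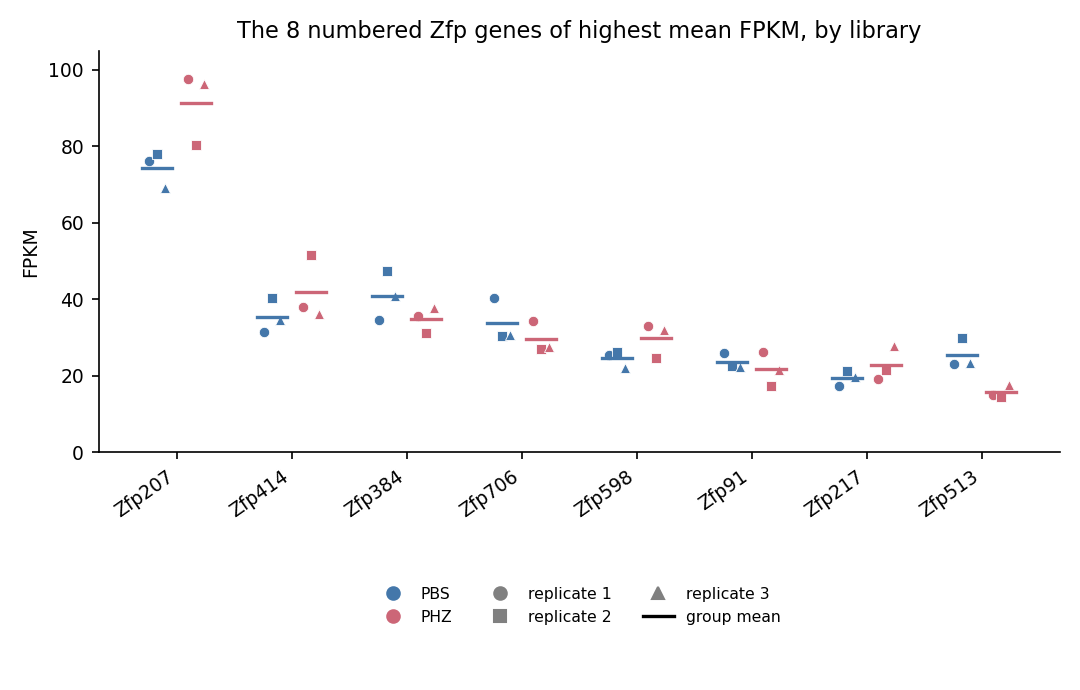
FPKM on a linear axis for the 8 members of highest mean FPKM, with 1 point per library (blue PBS, red PHZ; the marker shape is the replicate number) and a line at each group's mean. Zfp207 lies between 69.14 and 97.61 FPKM, above every library of the other genes, and the groups overlap for most genes but not for Zfp207 and Zfp513.

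The comparison of PHZ with PBS asked how the numbered Zfp genes differed 36 h after injection. Few of them did beyond the spread between rats: Zfp382, Zfp275 and Zfp367 rose, and Zfp608, Zfp386, Zfp202, Zfp868, Zfp703 and Zfp513 fell. These 9 calls (3 higher, 6 lower, edgeR quasi-likelihood test, Benjamini-Hochberg adjusted p under 0.05) were 6.21% of the 145 tested members. Over all tested genes 13.2% were called, 8.99% higher and 4.17% lower. The other 136 members did not pass the test, which does not show that they were alike in both groups.

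Differences among the members were mostly small and leaned towards lower values in PHZ. The estimated log2 fold change (PHZ over PBS) was below 0 in 93 members and above 0 in 52, so 64.1% were below, against 52.4% of all tested genes. Its median was -0.16 (quartiles -0.46 and 0.16), against -0.04 (-0.52 and 0.39) over all tested genes. In absolute size the median was 0.31 for members and 0.45 for all genes. A difference within 1.5-fold was estimated for 107 members (73.8%, against 62.1% of all), and 10 members differed by at least 2-fold (6.9%, against 14.4%). At an unadjusted edgeR p under 0.05 there were 35 members, 11 higher and 24 lower, or 24.1% against 34.1% of all genes. The groups did not overlap in 17 members that were higher in PHZ and 39 that were lower. Over all tested genes 22.5% were higher and 19.2% lower without overlap. Summed over the tested members, the level was 3066, 3258 and 3271 CPM in PBS and 2929, 2852 and 3082 CPM in PHZ, and the groups overlapped.

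**Figure D2:**
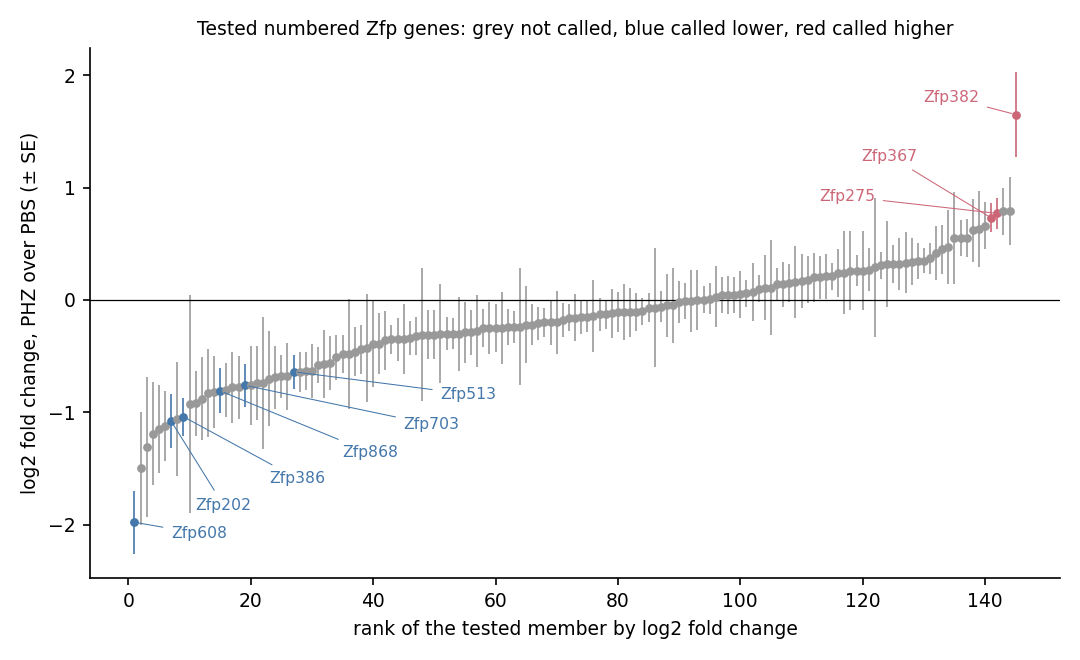
Log2 fold change of PHZ over PBS, with its SE as a bar, for the 145 tested members ranked from lowest to highest. The 9 called members are named, from Zfp608 at -1.98 to Zfp382 at 1.65, and more points lie below 0 (93) than above it (52).

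Level and length were only weakly related to the fold change. Across the 145 tested members Spearman's rho of the log2 fold change was 0.11 with the mean log2 CPM and -0.07 with transcript length, as descriptions across genes that share the same 6 libraries. The 73 tested members at or above the median FPKM of members had a median log2 fold change of -0.13 with 5 calls, and the 72 below it had -0.25 with 4 calls. These calls were 6.85% and 5.56%, against 13.2% of all tested genes.

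Zfp608 had the lowest log2 fold change among the 145 tested members. It encodes a nuclear protein known for restraining the recombinase genes Rag1 and Rag2 in developing thymocytes. Zfp608 (Entrez gene 307296) stood at 16.9, 21.4 and 21.3 CPM in the PBS replicates and 6.69, 3.37 and 4.98 CPM in the PHZ replicates. All PHZ libraries lay below all PBS libraries, with PHZ replicate 2 the lowest. The log2 fold change was -1.98 ± 0.28 (SE, n = 3 rats per group), 3.95-fold lower in PHZ, with an edgeR adjusted p of 0.0187.

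Zfp386 and Zfp202 fell about as far as each other. Zfp202 encodes a repressor known for its targets among lipid metabolism genes. Zfp386 (25165) stood at 39.1, 46.0 and 49.3 CPM in PBS and 22.5, 18.0 and 24.8 CPM in PHZ. The groups were well apart, and the log2 fold change was -1.04 ± 0.17, or 2.06-fold lower (edgeR adjusted p 0.0215). Zfp202 (500981) stood at 11.4, 18.5 and 17.9 CPM in PBS and 8.30, 6.49 and 7.82 CPM in PHZ. PBS replicate 1 was nearer to the PHZ libraries than the other controls were, and the log2 fold change was -1.08 ± 0.24, or 2.11-fold lower (edgeR adjusted p 0.0376).

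Zfp868, Zfp703 and Zfp513 fell by less than 2-fold. Zfp703 encodes a corepressor of the NET family that acts with Groucho proteins, and Zfp513 is known as a regulator of photoreceptor genes. Zfp868 (494340) measured 52.3, 74.1 and 88.6 CPM in PBS and 41.4, 38.8 and 42.0 CPM in PHZ. Its PBS libraries were widely spread and its PHZ libraries close together, with no overlap. The log2 fold change was -0.81 ± 0.20 (edgeR adjusted p 0.0453). In 3 of the 6 libraries its expected count was not whole, so reads shared with similar genes were divided by the authors' estimation and its value is less certain. Zfp703 (680717) measured 39.4, 58.0 and 50.9 CPM in PBS and 28.0, 25.0 and 34.3 CPM in PHZ. The highest PHZ library, replicate 3, was still below the lowest PBS library, replicate 1, and the log2 fold change was -0.76 ± 0.19 (edgeR adjusted p 0.0487). Zfp513 (313913) stood at 48.1, 61.8 and 53.6 CPM in PBS and 30.4, 35.7 and 39.1 CPM in PHZ. It was the most abundant of the 9 by FPKM and was lower in every PHZ library, with a log2 fold change of -0.64 ± 0.15 (edgeR adjusted p 0.0435).

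Among the members that rose, Zfp382 had the largest fold change and the lowest level. It encodes KS1, a KRAB repressor. Zfp382 (246264) measured 0.79, 1.57 and 1.44 CPM in PBS and 4.65, 3.87 and 3.45 CPM in PHZ. Every PHZ library was above every PBS library, and all were above the level of 3 counts, which is 0.154 to 0.227 CPM in these libraries. The log2 fold change was 1.65 ± 0.38, or 3.14-fold (edgeR adjusted p 0.0386).

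Zfp367 and Zfp275 rose by similar amounts. Zfp367 encodes ZFF29, described as an activator of fetal globin genes in erythroid cells. Zfp367 (306695) was at 37.5, 33.1 and 34.7 CPM in PBS and 53.5, 65.6 and 55.5 CPM in PHZ. The PBS libraries were within a few CPM of each other and PHZ replicate 2 was the highest. The log2 fold change was 0.73 ± 0.13, or 1.66-fold (edgeR adjusted p 0.0238). Zfp275 (293849) was at 12.9, 11.5 and 11.5 CPM in PBS and 19.8, 20.5 and 21.1 CPM in PHZ. It had the closest replicates among the 9 relative to its difference, with a log2 fold change of 0.77 ± 0.14, or 1.71-fold (edgeR adjusted p 0.0237).

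**Figure D3:**
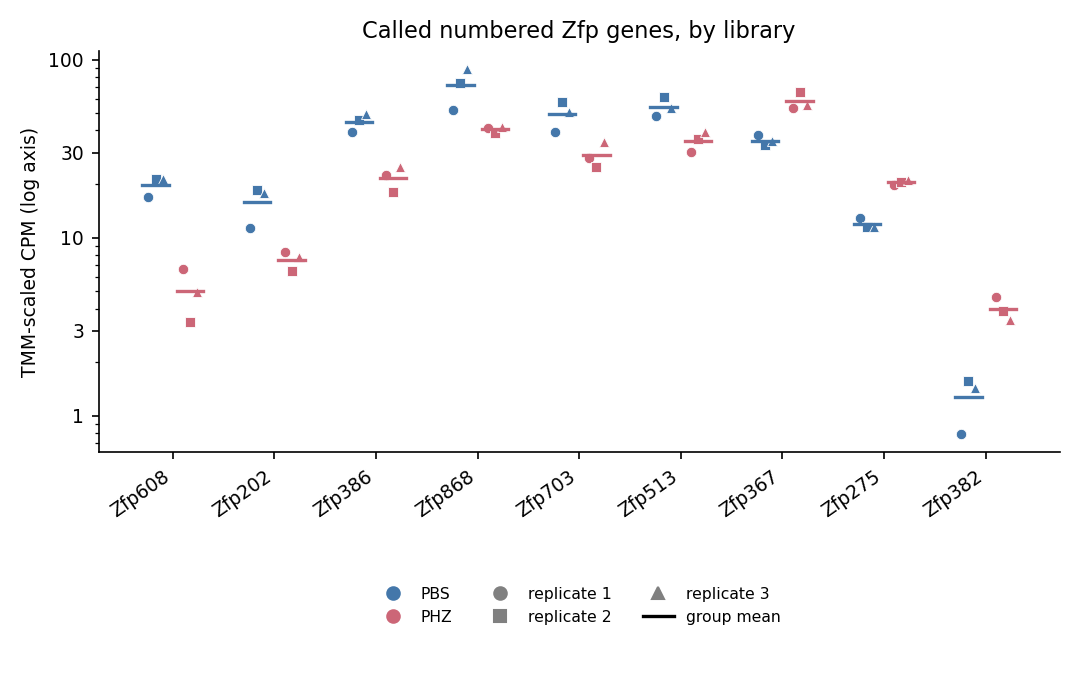
TMM-scaled CPM on a log axis for the 9 called members, with 1 point per library (blue PBS, red PHZ; the marker shape is the replicate number) and a line at each group's mean. In none of the 9 do the groups overlap: Zfp608 goes from 16.9 to 21.4 CPM in PBS to 3.37 to 6.69 in PHZ, and Zfp382 from 0.79 to 1.57 to between 3.45 and 4.65.

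The number of calls differed between the 15 alternatives run, while the direction of the 9 was the same in all of them. The 9 were picked on these same libraries and their groups did not overlap. Their direction was therefore largely fixed beforehand and is no evidence of stability. Zfp608 was called in 11 of the 15, Zfp386 in 9, Zfp367 in 8, Zfp275 in 7, Zfp202, Zfp382 and Zfp513 in 5 each, and Zfp703 and Zfp868 in 4 each. With sex by Y-linked transcripts as a covariate only Zfp608 was called (edgeR adjusted p 0.0403), or 0.69% of members against 3.21% of all genes. Zfp275, which lies on the X chromosome, then had a log2 fold change of 0.74 (edgeR adjusted p 0.0561). Without the 3 libraries that go against their sex label 1 PBS and 2 PHZ libraries were left, with 1 residual degree of freedom. This small fit says little about the stability of the calls. The log2 fold changes were then -2.09 for Zfp608, -1.29 for Zfp386, -1.28 for Zfp202, -1.14 for Zfp868, -0.94 for Zfp703, -0.69 for Zfp513, 0.78 for Zfp367, 0.82 for Zfp275 and 1.56 for Zfp382. Leaving out PBS replicate 2 or PBS replicate 3 left no call in edgeR among members or all genes. At an unadjusted edgeR p under 0.05 there were then 22 of 145 and 20 of 147 members. Over all genes there were 3325 of 13815 and 3291 of 13864. Without PHZ replicate 2 Zfp608 was the 1 member called (0.685% of members, against 1.91% of all genes). Without PHZ replicate 3 there were 3 lower calls (2.04%, against 4.1%), without PHZ replicate 1 there were 4 higher and 3 lower (4.79%, against 12.6%), and without PBS replicate 1 there were 5 higher and 10 lower (10.3%, against 12.7%).

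The promoters of 4 called members are shown so that the 3 members that rose, Zfp367, Zfp275 and Zfp382, can be read beside Zfp386, which fell. The windows of Zfp202, Zfp513 and Zfp868, which also fell, are not shown, so the 4 do not set risen against fallen members. They run from 250 bases before to 50 bases after the RefSeq gene start in the rat assembly GRCr8, 5' to 3' along the gene, and all 4 lie on the plus strand. Zfp367 is at chr17:970646-970945, Zfp275 at chrX:156208664-156208963, Zfp382 at chr1:94504844-94505143 and Zfp386 at chr6:143109358-143109657. Capitals mark matches on either strand. They are GC boxes, whose letters searched were GGGCGG, and CCAAT boxes, searched by the letters of their name. In Zfp275 they also cover the core of an E2F site, whose letters searched were GGCGGGA.
Zfp367: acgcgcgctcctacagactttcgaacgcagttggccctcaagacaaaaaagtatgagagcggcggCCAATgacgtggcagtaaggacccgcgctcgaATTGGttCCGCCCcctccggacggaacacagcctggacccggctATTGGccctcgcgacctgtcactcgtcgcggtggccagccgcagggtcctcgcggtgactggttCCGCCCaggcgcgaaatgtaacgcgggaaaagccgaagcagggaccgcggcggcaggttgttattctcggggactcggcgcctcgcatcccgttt
Zfp275: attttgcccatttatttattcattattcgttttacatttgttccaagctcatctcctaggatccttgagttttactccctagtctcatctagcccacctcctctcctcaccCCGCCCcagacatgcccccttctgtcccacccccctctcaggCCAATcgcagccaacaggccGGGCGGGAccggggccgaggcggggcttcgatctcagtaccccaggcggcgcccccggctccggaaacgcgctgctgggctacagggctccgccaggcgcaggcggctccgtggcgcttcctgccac
Zfp382: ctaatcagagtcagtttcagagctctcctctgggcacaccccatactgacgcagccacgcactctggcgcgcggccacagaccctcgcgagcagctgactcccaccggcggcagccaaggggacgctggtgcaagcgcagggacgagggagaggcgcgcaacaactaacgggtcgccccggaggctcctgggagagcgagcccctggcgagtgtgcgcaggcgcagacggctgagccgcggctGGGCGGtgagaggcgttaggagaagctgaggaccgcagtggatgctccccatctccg
Zfp386: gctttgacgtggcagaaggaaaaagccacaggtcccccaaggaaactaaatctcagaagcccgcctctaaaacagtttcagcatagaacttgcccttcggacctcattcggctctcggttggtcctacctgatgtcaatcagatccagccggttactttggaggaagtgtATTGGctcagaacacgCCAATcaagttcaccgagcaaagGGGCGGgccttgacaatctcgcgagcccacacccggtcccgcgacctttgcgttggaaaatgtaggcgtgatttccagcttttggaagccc

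Zfp367 had 37 CG pairs in its window, with 3 CCAAT boxes and 2 GC boxes. Zfp275 had 20 CG pairs, 2 GC boxes, 1 CCAAT box and 1 E2F core, which overlaps a GC box. Zfp382 had 28 CG pairs and 1 GC box. Zfp386 had 16 CG pairs, 2 CCAAT boxes and 1 GC box. A match is a description of the letters and not a bound site.

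Promoter windows were found for 129 of the 156 members, among 27457 in all. The 27457 windows also cover genes not listed in these libraries, while every member was listed. The shares below therefore do not set members against genes expressed in these cells alone. Members had a median of 18 CG pairs and 58.3% GC, against 7 pairs and 52.3% over all windows. The part of this base composition in the motif shares was not tested. Searched on both strands, a GC box was present in 47.3% of members' windows and 34.7% of all, and a CCAAT box in 40.3% and 37.7%. The E2F core was in 17.1% and 11.1%, an ETS site (CCGGAAG) in 21.7% and 9.21%, and an E-box (CACGTG) in 7.75% and 6.63%. An NRF1 core (GCGCATGC) was in 7.75% and 2.66%, and a core of the ZNF143 site (ACTACAATT) in 2.33% and 0.419%. A GATA site (AGATAA) was in 4.65% and 11.3%, the one motif of the 8 that was less frequent in members. Of the 9 called members 7 had a window, and neither Zfp608 nor Zfp703 was among them. A GC box was found in 4 of the 7 (Zfp275, Zfp367, Zfp382 and Zfp386) and a CCAAT box in 5 (Zfp275, Zfp367, Zfp386, Zfp513 and Zfp868). The E2F core was found in 2 of them, Zfp275, which rose, and Zfp513, which fell.

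Of 4 members that act on ribosomes or the spindle, Zfp207, Zfp598 and Zfp593 had estimates above 0 and Zfp622 one near 0, and none passed the edgeR test. Zfp207 was at 128.3, 130.5 and 128.1 CPM in PBS and 159.1, 161.7 and 172.0 CPM in PHZ. The groups did not overlap, and the log2 fold change was 0.35 ± 0.11 (edgeR adjusted p 0.0769, DESeq2 adjusted p 0.00943). Zfp598 was at 82.0, 85.1 and 77.8 CPM in PBS and 101.9, 93.4 and 108.8 CPM in PHZ, again without overlap, at 0.31 ± 0.12 (edgeR adjusted p 0.112). Zfp593 and Zfp622 encode factors of large ribosomal subunit maturation. Zfp593 was at 6.08, 7.74 and 8.45 CPM in PBS and 11.1, 13.6 and 10.7 CPM in PHZ, at 0.66 ± 0.21 (edgeR adjusted p 0.0818). Zfp622, whose counts were not whole in any library, had a log2 fold change of 0.01 ± 0.14 (edgeR adjusted p 0.957), from a mean of 17.3 CPM in PBS to 17.5 in PHZ, and its estimate was below 0 with limma (-0.09) and upper-quartile scaling (-0.04).

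Zfp143, Zfp410, Zfp217, Zfp384, Zfp414, Zfp706, Zfp91 and Zfp292, named for their level or role, did not pass the edgeR test either. Zfp143, which encodes an activator of many promoters, was at 26.9, 28.5 and 27.4 CPM in PBS and 25.3, 29.5 and 28.0 CPM in PHZ. The groups overlapped fully, with an SE of 0.12 on the log2 scale around a difference near 0 (edgeR adjusted p 0.991). Zfp410, known for activating the gene of the chromatin remodeller CHD4, was at 33.7 to 38.4 CPM in PBS and 38.6 to 43.7 in PHZ, at 0.21 ± 0.12 (edgeR adjusted p 0.258). Chd4 itself was not found among the genes listed, so it was not analysed here. Zfp217 had a log2 fold change of 0.34 ± 0.21 (edgeR adjusted p 0.294), with PHZ replicate 1 inside the PBS range. Zfp384 (-0.21 ± 0.15, edgeR adjusted p 0.369), Zfp414 (0.32 ± 0.23, 0.355), Zfp706 (-0.15 ± 0.14, 0.488) and Zfp91 (-0.07 ± 0.13, 0.723) overlapped between groups. Single libraries moved these small estimates: without PHZ replicate 2 Zfp414 was at 0.05, and without PBS replicate 1 Zfp706 was at -0.03, Zfp91 at -0.02 and Zfp384 at -0.33. Without PBS replicate 2 Zfp384 was at -0.11, and without PHZ replicate 1 Zfp217 was at 0.54. Zfp292 also overlapped, at 48.7 to 56.6 CPM in PBS and 28.8 to 65.3 in PHZ (-0.20 ± 0.28, edgeR adjusted p 0.651), and was at -0.52 without PHZ replicate 1 and 0.06 without PHZ replicate 2.

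Several members have a close relative in the family, and the estimates of some such pairs are given here and in the next paragraph. The pairs were chosen after the values were seen, and no test was made between genes. Zfp609, the relative of Zfp608, was at 63.9, 74.2 and 72.8 CPM in PBS and 84.3, 52.6 and 71.2 CPM in PHZ. Its groups overlapped and its log2 fold change was -0.02 ± 0.19 (edgeR adjusted p 0.953), beside -1.98 for Zfp608. Zfp503, the other NET family member beside Zfp703, had -0.39 ± 0.39 (edgeR adjusted p 0.517), with PHZ replicate 2 low at 3.18 CPM and the other libraries at 6.82 to 9.44. Zfp523, the relative of Zfp143, was at 14.3, 26.2 and 21.0 CPM in PBS and 11.8, 12.7 and 10.9 CPM in PHZ. No PHZ library reached the PBS range, and the log2 fold change was -0.80 ± 0.24 (edgeR adjusted p 0.0708).

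Zfp148 and Zfp281 encode related factors that bind GC-rich promoters, and both had estimates below 0 without overlap. Zfp148 was at 49.9, 52.5 and 51.9 CPM in PBS and 43.5, 33.4 and 44.7 CPM in PHZ (-0.34 ± 0.15, edgeR adjusted p 0.149). Zfp281 was at 19.6, 22.0 and 22.3 CPM in PBS and 17.7, 6.93 and 13.6 CPM in PHZ (-0.74 ± 0.33, edgeR adjusted p 0.166). In both, PHZ replicate 2 was the lowest library, and without it the estimates were -0.22 for Zfp148 and -0.43 for Zfp281. Without PHZ replicate 1 the estimate for Zfp281 was -1.05. Zfp532 and Zfp592, which belong to a ZMYND8-associated complex, had -0.82 ± 0.32 (edgeR adjusted p 0.127) and -0.20 ± 0.13 (0.331).

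Zfp521 and Zfp423 encode paralogous many-fingered proteins that bind EBF1, and Zfp521 is known from haematopoietic progenitors. Zfp521 was at 4.19, 2.33 and 1.57 CPM in PBS and 1.14, 0.624 and 1.07 CPM in PHZ. The groups did not overlap and PBS replicate 1 was the highest, with a log2 fold change of -1.50 ± 0.50 (edgeR adjusted p 0.0869). Without PBS replicate 1 the estimate was -1.04 (edgeR adjusted p 0.182). Zfp423 had 16 counts in PBS replicate 1 and 0 to 2 in every other library, and did not pass the filter on low counts. PBS replicate 1 is the library with the high stromal and endothelial sum of 713.8 CPM, and the part of that in these values was not tested.

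**Figure D4:**
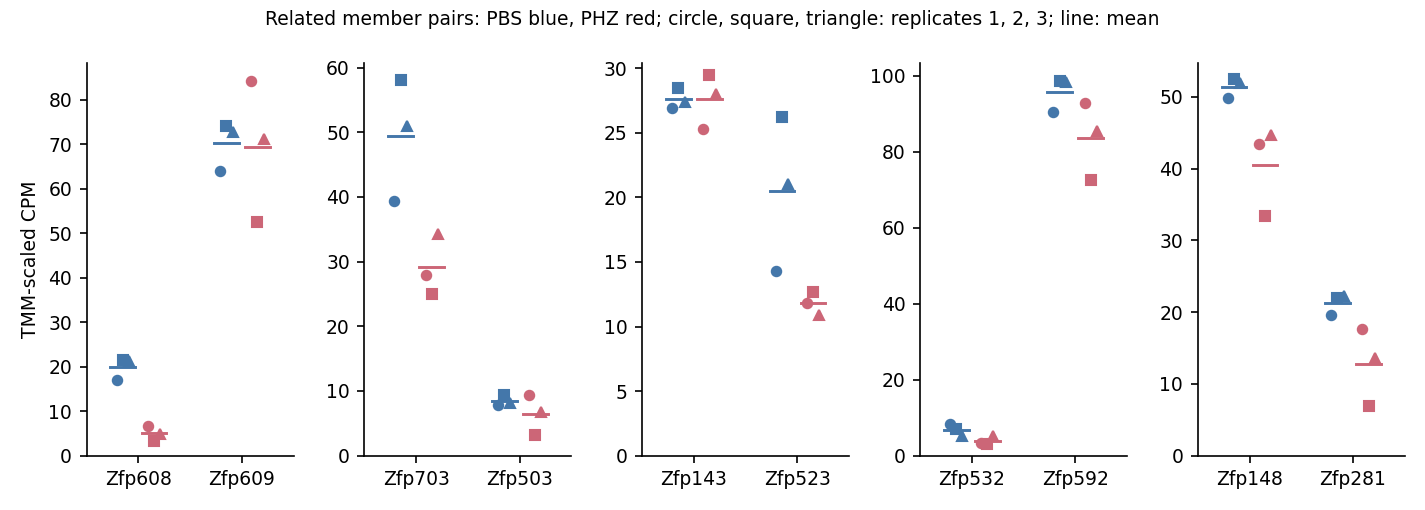
TMM-scaled CPM on linear axes that start at 0, for 5 pairs of related members with a panel and scale of their own, with 1 point per library (blue PBS, red PHZ; the marker shape is the replicate number) and a line at each group's mean. Zfp608 separates by group while Zfp609 overlaps, and Zfp523 separates while Zfp143 overlaps.

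Some numbered Zfp genes are neighbours in the rat genome. In the RefSeq gene order of GRCr8, 36 members form 16 runs with no other protein-coding gene between them: 1 run of 4, 2 of 3 and 13 pairs. In 13 runs all genes were tested, and the estimates were all below 0 in 5 of them, all above 0 in 1, and mixed or at 0 in 7. The run with all estimates above 0 was Zfp566, Zfp260 and Zfp382. Their log2 fold changes were 0.03 ± 0.27, 0.79 ± 0.21 (edgeR adjusted p 0.0522) and 1.65 ± 0.38, so of the 3 only Zfp382 was called. Zfp260 was at 16.3, 11.4 and 10.8 CPM in PBS and 21.2, 25.0 and 20.2 CPM in PHZ, without overlap. Zfp61 and Zfp94 had -0.68 ± 0.19 (edgeR adjusted p 0.0597) and -0.83 ± 0.39 (0.178). Zfp53 and Zfp52 had -0.69 and -0.76, but neither had a whole count in any library, so shared reads may tie their values to each other. These genes were named after their values were seen.

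Counts were whole in all 6 libraries for 132 members and not whole in at least 1 library for 24, and in 13 of those they were not whole in any library. The 121 tested members with whole counts held 8 of the 9 calls, with a median log2 fold change of -0.16. The 24 with a non-whole count held 1 call, Zfp868, and had a median of -0.06. The calls were 6.61% and 4.17% of these sets in turn, against 13.2% of all tested genes. The authors' files give a KRAB orthology label to 129 members, which is a broad annotation by likeness and not a domain search. Of the 120 labelled members that were tested, 7 were called (5.83%) and the median was -0.17. Of the 25 tested members without the label, 2 were called (8.0%, Zfp608 and Zfp703) and the median was -0.11. Both shares lay under that of all tested genes.

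Of 14 tested genes on a list of KAP1 and H3K9 methylation partners, 11 had estimates above 0 and 3, with Setdb1 among them, below 0. Trim28 was at 157.9, 194.8 and 190.7 CPM in PBS and 241.4, 272.8 and 231.8 CPM in PHZ. The groups did not overlap, and the log2 fold change was 0.46 ± 0.14 (edgeR adjusted p 0.0771). Setdb1 was at 75.7, 83.2 and 82.9 CPM in PBS and 72.8, 68.1 and 73.9 CPM in PHZ. Its groups did not overlap either, but with PHZ lower, at -0.17 ± 0.11 (edgeR adjusted p 0.31). Of the 14 tested genes, 4 rose and none fell (28.6%, against 8.99% of all tested genes called higher). Other genes of the list, Atf7ip, Cbx1 and Tasor among them, were not found among the genes listed. The median log2 fold change was 0.33. The 4 were Uhrf1, which reads methylated DNA and H3K9 (1.12 ± 0.12), Cbx5, the heterochromatin protein HP1 alpha (0.61 ± 0.14), and the H3K9 methyltransferases Suv39h1 (0.67 ± 0.15) and Suv39h2 (0.67 ± 0.17). Their edgeR adjusted p values were 0.0154, 0.0369, 0.0359 and 0.0495.

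In a list of NuRD and histone deacetylase corepressors, 7 of 16 tested genes rose and none fell, with a median of 0.36. Chd3, Chd4 and Mta3 were on the list but were not found among the genes listed. The 7 were 43.8% of those tested, against 8.99% of all tested genes called higher. The 7 were the histone-binding Rbbp4 (0.84 ± 0.18) and Rbbp7 (0.53 ± 0.13), the NuRD subunits Mbd3 (0.77 ± 0.13), Mbd2 (0.57 ± 0.14) and Mta1 (0.53 ± 0.12), the deacetylase Hdac1 (0.71 ± 0.18) and the demethylase Kdm1a (0.54 ± 0.13). Their edgeR adjusted p values ran from 0.0229 for Mbd3 to 0.0467 for Kdm1a. Genes of DNA replication moved with them: 14 of 15 rose, with summed levels of 1591 to 1720 CPM in PBS and 3296 to 4215 CPM in PHZ. The part of this in the partner genes was not tested. Under the 15 alternatives the medians stayed between 0.27 and 0.37 for the KAP1 list and between 0.30 and 0.40 for the NuRD list, while the calls were fewer in most. With upper-quartile scaling 3 and 2 genes rose. With labelled sex as a covariate it was 1 and 1, and with sex by Y-linked transcripts 1 and 0. DESeq2 called 6 and 7 genes higher and 1 gene of the NuRD list lower. Without PBS replicate 1 it was 1 and 2, without PHZ replicate 2 it was 1 and 0, and without PHZ replicate 3 it was 1 and 1. Without PBS replicate 2 or PBS replicate 3 no gene of either list was called. Without the 3 libraries against their sex label, where no gene was called, the medians were 0.28 (KAP1 list), 0.35 (NuRD list) and 1.11 (DNA replication).

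Another 64 zinc finger genes were taken by symbol (Znf, Zbtb, Zscan, Zkscan, Zfhx, Zik, and Zfp with a number and a letter). Of the 55 tested, 2 rose and 3 fell, so 9.09% were called, against 13.2% of all tested genes. Of the estimates 70.9% were below 0, and the median log2 fold change was -0.26. The median was between -0.32 and -0.16 under the alternatives, with 3 higher and 10 lower calls in DESeq2. No test was made between these and the numbered Zfp genes.

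**Figure D5:**
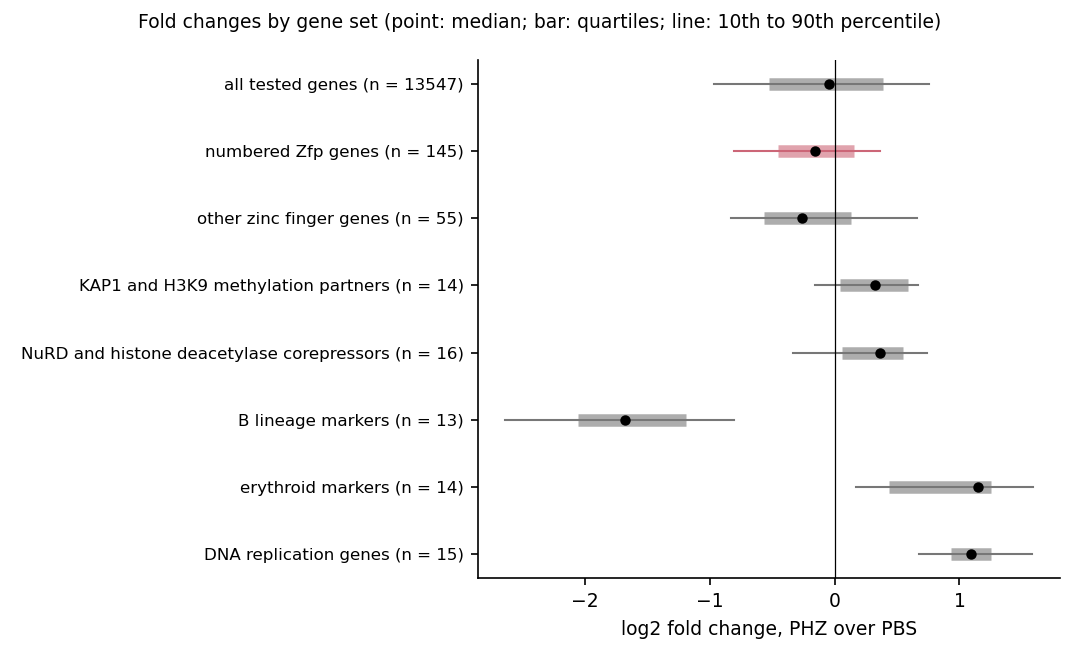
Log2 fold change of PHZ over PBS by gene set, with the median of its tested genes as a point, the quartiles as a bar and the 10th to 90th percentile as a line. The numbered Zfp genes have a median of -0.16 beside -0.04 for all tested genes, the partner lists have 0.33 and 0.36, and the marker lists lie further out.

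Markers of other cells in the marrow differed between the groups. In bulk RNA fewer cells of a type and less RNA per cell cannot be told apart. Of 13 B lineage markers 7 fell and none rose, and their summed level was 919.4 to 1039 CPM in PBS and 418.9 to 477.4 in PHZ. Of 14 T and NK lineage markers 9 fell. Their summed level was 363.1 to 553.6 CPM in PBS and 220.9 to 253.6 in PHZ, but Cd4 was its largest part in every library. Cd4 was at 456.6, 150.5 and 161.6 CPM in PBS and 139.7, 138.1 and 170.3 CPM in PHZ. It overlapped between groups and was not called (edgeR adjusted p 0.267), so the sum says little about the other markers. No tested marker of these lists was at 0 in any library. Of 14 erythroid markers 8 rose, among them Gata1 and Klf1, while the summed level, mostly globin, overlapped between groups (95840 to 211800 CPM in PBS and 86580 to 251600 in PHZ). Among 8 stem and progenitor markers 3 fell (summed 297.5 to 433.4 CPM in PBS and 214.0 to 290.2 in PHZ), and among 13 neutrophil granule markers 2 fell (13500 to 27740 and 6209 to 12500 CPM). No monocyte or macrophage marker of 13 was called (edgeR, 1 at an unadjusted p under 0.05), with a sum of 4353 CPM in PBS replicate 1 and 1567 to 2183 CPM elsewhere. Of 9 stromal and endothelial markers 2 fell. For comparison, 13.2% of all tested genes were called, 8.99% higher and 4.17% lower. Without PBS replicate 2 or PBS replicate 3 no marker was called, as for all genes, and without PHZ replicate 2 there were 4 B lineage calls, 3 erythroid calls and none in the other marker lists. Without PBS replicate 1 the calls were 6 (B lineage), 10 (T and NK), 8 (erythroid), 4 (stem and progenitor), 7 (neutrophil) and 2 (stromal and endothelial). Without PHZ replicate 3 they were 3 (B lineage), 2 (T and NK) and 2 (erythroid), with none elsewhere. With sex by Y-linked transcripts as a covariate they were 4 (B lineage), 1 (T and NK) and 5 (erythroid), with none elsewhere. In that fit 3.21% of all genes were called. Without the 3 libraries against their sex label the median log2 fold changes were -1.98 (B lineage), -2.38 (T and NK), 1.19 (erythroid), -1.09 (stem and progenitor), -1.22 (neutrophil), -0.23 (stromal and endothelial) and 0.14 (monocyte and macrophage). With all libraries they were -1.68, -1.84, 1.15, -0.96, -0.94, -2.77 and -0.36 in the same order. The part of these cell markers in the Zfp values was not tested.

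DESeq2, run on the same counts, called 7 members higher and 13 lower, and these included all 9 called by edgeR. Over all genes it called 13.4% higher and 10.2% lower, and its calls came to 13.3% of the members with an adjusted p and 23.6% of all such genes. Zfp207, Zfp260, Zfp516, Zfp523 and Zfp710 were among its further calls and were named after their values were seen. Zfp516, known as an activator of thermogenic genes in brown fat, was at 33.6, 55.8 and 47.4 CPM in PBS and 16.3, 16.4 and 30.2 CPM in PHZ. Its groups did not overlap, with PHZ replicate 3 closest to PBS, and the log2 fold change was -1.12 ± 0.31 (edgeR adjusted p 0.0577). Zfp710 was at 112.0, 123.2 and 112.5 CPM in PBS and 79.6, 56.6 and 86.3 CPM in PHZ (-0.64 ± 0.18, edgeR adjusted p 0.0576), with whole counts in 1 library only.

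The authors' deposited table marks 1 member Up, Zfp382, and 5 Down, Zfp608, Zfp386, Zfp516, Zfp575 and Zfp202. Over all genes the authors' deposited table marks 3.18% Up and 6.89% Down. In the authors' deposited table the log2 ratio was 1.62 for Zfp382, -2.01 for Zfp608, -1.19 for Zfp516, -1.12 for both Zfp575 and Zfp202, and -1.01 for Zfp386. No gene marked in the authors' deposited table had an absolute log2 ratio under 1.0 or a probability under 0.802. Its sign and that of the edgeR estimate were the same for 139 of the 145 tested members. Of its 6 marked members 4 were among the 9 edgeR calls, and Zfp516 and Zfp575 were not. Zfp575 was at 0.729, 2.33 and 1.31 CPM in PBS and 0.711, 0.687 and 0.69 CPM in PHZ. The lowest PBS library lay just above the PHZ libraries, and the log2 fold change was -1.06 ± 0.51 (edgeR adjusted p 0.196).

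The 11 members that did not pass the filter were Zfp2, Zfp7, Zfp9, Zfp93, Zfp112, Zfp365, Zfp423, Zfp483, Zfp697, Zfp786 and Zfp831. They had 0 to 18 counts per library, and none averaged more than 0.155 FPKM. Zfp365 had 18 counts in PBS replicate 1 and 0 to 5 elsewhere, the same library in which Zfp423 had 16. Zfp831 had 10, 10 and 8 counts in PBS and 6, 0 and 2 in PHZ. In the 2 alternatives that kept them, none was called: without an expression filter the smallest edgeR adjusted p among the 11 was 0.208, and in DESeq2 it was 0.259 among the 5 that had one. In neither was any of the 11 at an unadjusted p under 0.05.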

How the data were processed

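Poly(A) RNA sequencing values of 6 libraries, 1 per rat, were used. Per the file headers, the authors deposited an expected count and an FPKM value per gene and library. The submitters' processing notes name HISAT, GATK, RSEM and the build rn6, without role or version. The authors' deposited comparison holds group mean FPKM, a log2 ratio (PHZ to PBS) and a Probability score. Genes unlisted in a library were set to 0.

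Expected counts were rounded and tested with edgeR 4.0.16 under R 4.3.3 (filterByExpr, TMM factors, glmQLFit with robust set, glmQLFTest) over all genes, with treatment as the only term, Benjamini-Hochberg adjustment and a threshold of 0.05. The fit had 4 residual degrees of freedom and a biological coefficient of variation of 35.2%. The main edgeR fit and test, but none of the alternatives, were also run on simulated counts without sex imbalance or an outlying library. The outcome is not reported here, and that run does not speak to such features of these libraries. CPM values are TMM-scaled, except those of Y-linked genes, which are per library total. A value was taken as whole within 0.005. The floor is 3 counts, which covers counting error only.

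The members and lists were chosen with earlier results of these data known. Named members are all called ones, the 8 of highest mean FPKM, and a list by role. Partner genes are named if called, with Trim28 and Setdb1 always. The lists described are KAP1 and H3K9 methylation partners, NuRD and deacetylase corepressors, DNA replication genes and markers of 7 cell types. Their counts are of tested genes, leaving out genes not found or under the filter on low counts. Alternatives were DESeq2 1.42.0, limma 3.58.1 on log2(FPKM + 0.1), other scaling and filters, covariates, and left-out libraries. A planned split of members by protein domains was not run, since no protein table was used here. Promoter sequences and gene order are from RefSeq for GRCr8, and the order was used for neighbours only. All 156 members were matched in the gene table.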

Additional observations from a re-analysis of the deposited data

Results flagged for a closer look

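Transcripts of 2 Y-linked genes were present in 2 libraries labelled female. In the comparisons they served only as a covariate in an alternative fit and to choose libraries left out of another. PBS replicate 1 had 61.1 CPM and PHZ replicate 3 had 55.6 CPM. PBS replicate 2, labelled male, had 0.061 CPM, while PHZ replicate 2, also labelled male, had 49.0 CPM. The other libraries labelled female had 0 and 0.051 CPM.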

How the results depend on the processing

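The main test called 3 members higher and 6 lower. Members called higher numbered 7 with DESeq2, and 0 with the replicate block, with sex by Y-linked transcripts (an alternative chosen after seeing the data) and with the 3 libraries of discordant sex label left out. Members called lower numbered 13 with DESeq2, 2 with labelled sex, 3 with limma on FPKM, 3 with no expression filter, 1 with sex by Y-linked transcripts, and 0 with the replicate block and without those 3 libraries, which leaves 1 PBS and 2 PHZ libraries. With both directions together, labelled sex gave calls in 2.76% of members, against 6.85% of all genes. The shares were 3.45% against 9.46% with limma on FPKM and 3.85% against 9.03% with no expression filter. For DESeq2 they were 13.3% against 23.6%, and for sex by Y-linked transcripts 0.69% against 3.21%. Leaving out 1 library at a time gave 0 to 5 higher and 0 to 10 lower. With 0 calls in edgeR, members at an unadjusted p under 0.05 numbered 32 of 145 with the replicate block, against 4641 of 13547 genes. They numbered 22 of 145 without PBS replicate 2 (3325 of 13815 genes) and 20 of 147 without PBS replicate 3 (3291 of 13864 genes). In each of these fits the share of members was below that of all genes. Same-numbered libraries correlated at 0.213, 0.057 and 0.005 in their deviations from the group means, and not every library correlated best with its own number, so the numbers were not taken as pairs. The median log2 fold change of members lay between -0.22 and -0.12 under the alternatives, and that of all genes between -0.11 and 0.03. The distance between the medians was smaller in some: -0.19 against -0.11 with DESeq2 and -0.17 against -0.09 with no expression filter. In the main fit they were -0.16 and -0.04. Estimates near 0 changed sign: Zfp143 was 0.01 with no expression filter and -0.05 to 0.06 with 1 library left out, and Zfp622 was -0.09 with limma on FPKM, -0.04 with upper-quartile scaling and -0.05 to 0.08 with 1 library left out. With 1 library left out Zfp292 ranged from -0.52 to 0.06 and Zfp91 from -0.15 to 0.01. The cause was not tested. A group left with 1 library was assumed to vary like the other group.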
